A study of Mus musculus with 24 samples.

Results

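CHD and ISWI chromatin remodelers were followed through 4 states of mouse CD4 T cells with and without BAF180. The genes were the CHD family members Chd1, Chd2, Chd3, Chd4, Chd7, Chd8 and Chd9 and the ISWI ATPase gene Smarca5, and a probe was taken wherever its symbol in the deposited table of intensities was one of these names. Chd1, Chd4 and Chd8, 3 of the 8 genes, had 6 probes of the 25697 in the table, which holds 17872 genes. Chd2, Chd3, Chd7, Chd9 and Smarca5 had no probe under that rule, and none was found for them by the Entrez ID, the accessions or the older symbols that RefSeq (GRCm38.p6) gives. A probe listed under yet another name would be missed, and these 5 genes were not analysed here. All 6 probes passed the filter on low values, a detection p-value of at most 0.02 on at least 1 of the 24 arrays.

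Chromatin remodelers of the CHD and ISWI families are ATPases that use the energy of ATP hydrolysis to slide, space or evict nucleosomes. CHD4 is the motor of the NuRD complex, which joins remodeling to histone deacetylation and is known in T cells for its part in thymocyte development and in the control of the Cd4 gene, while CHD1 binds methylated histone tails near the starts of active genes and CHD8 is known for binding beta-catenin. BAF180, encoded by Pbrm1, is the polybromo subunit of PBAF, a remodeler of a separate family, SWI/SNF.

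RNA of CD4 T cells from mice with a conditional deletion of Pbrm1 and from WT mice was hybridized to Illumina bead arrays. Deletion was driven by CD4-Cre, which acts in developing T cells of the thymus, so deletion began before the cells were isolated and cultured. The 8 groups, 4 states in 2 genotypes, held 3 arrays each, given here as replicates A, B and C. Arrays detected between 8047 and 10689 probes, and their median deposited intensity lay between 40.6 and 48.9.

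The labels give Balb/c as the strain and 4 to 6 weeks as the age of the mice, whereas the study's methods name another background. Resting Naïve cells were CD4 and CD62L positive cells of spleen and lymph nodes, selected with a kit to a stated purity of 95%. For the stimulated Naïve groups, such cells were cultured for 24 h with 1 µg/ml of anti-CD3 and 2 µg/ml of anti-CD28. Resting Th2 cells had been activated with the same antibodies in IL-4 at 10 ng/ml and anti-IFN-γ at 10 µg/ml, with IL-2 at 100 U/ml added at 24 h, and were then expanded. Stimulated Th2 cells were such cells exposed for 1.5 h to 50 ng/ml of PMA together with 500 ng/ml of ionomycin. WT and BAF180-deficient cells received the same agents in every state.

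Levels are background-corrected, quantile-normalized log2 intensities, and differences are log2 differences, so that 1 is a doubling. A probe's intensity depends on its own sequence, so levels were compared between groups for a single probe, and not between probes or genes. In bulk RNA, fewer cells of a type and less RNA per cell cannot be told apart. The number of arrays limits the precision, and p-values measure the spread between these arrays. Differences between genotypes (BAF180-deficient minus WT) were called by criteria of the study's methods. These were a false discovery rate below 0.3, an unadjusted p below 0.05 and a Z-ratio (the difference scaled by the spread of all differences) beyond 1.5. The methods' further criterion, a mean signal above 0, was not applied as a separate step. Here limma p-values, Benjamini-Hochberg rates and normalized log2 differences took the place of the methods' own statistics and Z-scores. The Z-ratio limit stood for a log2 difference of 0.36 in resting Naïve, 0.28 in stimulated Naïve, 0.31 in resting Th2 and 0.28 in stimulated Th2 cells. Differences between states were called at a limma p below 0.05 after adjustment over all 14246 kept probes.

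Pbrm1, the deleted gene, had 3 kept probes, listed in the table under an older symbol, and their positions relative to the deleted exon were not mapped. A probe outside that exon does not check the deletion. At its brightest probe, Pbrm1 in resting Naïve cells was at 8.20, 8.72 and 8.69 in WT and at 7.88, 7.28 and 7.41 in BAF180-deficient replicates A, B and C. Stimulated Naïve cells gave 8.29, 8.76 and 8.67 in WT and 6.36, 7.06 and 7.41 in BAF180-deficient cells. In resting Th2 cells the levels were 9.06, 9.06 and 8.88 in WT and 7.16, 7.23 and 7.02 without BAF180. All BAF180-deficient arrays lay below all WT arrays in these 3 states. Stimulated Th2 cells gave 8.52, 8.14 and 8.21 in WT and 6.56, 6.90 and 7.15 without BAF180, again without overlap. Pbrm1 was lower by criteria in all 4 states, with log2 differences of -1.01 (limma adjusted p 0.121), -1.63 (0.00746), -1.86 (0.00101) and -1.42 (0.0141) in the order given. The call in resting Naïve cells was lost without BAF180-deficient replicate B (-0.89, adjusted p 0.326) and under a Z-score normalization (-0.93). After normalization within each state, or with the 6 arrays of a state alone, the calls were lost in all states but resting Th2, while the differences kept their size: -0.95, -1.68 and -1.45 within states in the order given, and -1.01, -1.63 and -1.42 with 6 arrays. The other 2 probes were lower in all 4 states and were not called.

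The cells were checked against marker genes. All 6 T cell markers (Cd3e, Cd3d, Cd3g, Cd4, Cd5 and Lck) were detected on every array of every group. Still, 3 of the 6 were called lower after 24 h of stimulation: Cd3e (-0.93 in WT and -0.76 without BAF180), Cd3g (-2.08 and -1.87) and Lck (-0.89 and -0.80). Cd3d was called higher in Th2 than in Naïve cells at rest in WT (0.70), and without BAF180 Cd5 was called lower there (-0.79) and Cd3g lower on restimulation (-0.91). For these 3 the other genotype had no call, and the differences between the genotypes in response were -0.24 ± 0.34, -0.62 ± 0.41 and -0.22 ± 0.41 (limma adjusted p 1.00 for each), so none was shown. Of 5 Th2 markers, 3 were undetected on all resting Naïve arrays of both genotypes. Il4 had mean levels of 14.02 and 14.14 in WT and BAF180-deficient stimulated Th2 cells. On restimulation 4 of the 5 were called higher in each genotype. Ccr4 was called lower there in WT (-0.43), with -0.06 without BAF180. In Th2 against Naïve cells at rest, 3 were called higher in each genotype, but not Il13 or Il5. After 24 h of stimulation 5 were called higher in WT and 4 without BAF180, so these markers did not mark Th2 cells alone. Of the 4 markers of acute stimulation, Egr1 and Fos were kept, and both were highest in resting Naïve cells. Egr1 had means of 11.64 and 11.66 there in WT and BAF180-deficient cells, against 10.37 and 10.07 in stimulated Th2 cells, and rose by 3.97 and 4.22 on restimulation. Fos had means of 11.27 and 11.23 in resting Naïve cells against 5.90 and 5.76 in stimulated Th2 cells, and was not called on restimulation (-0.15 and -0.57). No marker of any list was called between genotypes in any state.

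Summed levels of B cell, myeloid and erythroid markers were highest in the resting Naïve arrays. Summed over the 6 B cell markers, of which Cd74 was the brightest, the linear normalized level was 7190, 5370 and 7620 in resting Naïve WT and 6620, 9280 and 7910 in resting Naïve BAF180-deficient replicates A, B and C, against 268 to 1650 on the other 18 arrays. The 4 kept myeloid markers of 5, with Lyz2 brightest, summed to 1100, 931 and 3510 in resting Naïve WT and to 1190, 1430 and 1590 in resting Naïve BAF180-deficient cells, against 82.0 to 113 elsewhere. Myeloid and B cell sums in the resting Naïve state thus did not overlap those of the other states. The 2 erythroid markers, with Hba-a1 brightest, summed to 2390, 328 and 12100 in resting Naïve WT and to 3720, 5290 and 5910 in resting Naïve BAF180-deficient cells, against 42.9 to 309 elsewhere. Replicate C of resting Naïve WT thus had the highest myeloid and erythroid sums of all 24 arrays, and the erythroid sums of the resting Naïve arrays were above those of all other arrays. Cd8b1, the kept CD8 T marker of 2, was detected on every array, at sums of 284 to 501 in resting Naïve cells and 87.0 to 357 elsewhere. It was called lower without BAF180 after 24 h (-1.42) and in Th2 against Naïve cells at rest (-1.4), and in WT in neither (-0.77 and -0.59). The differences between the genotypes in these responses were -0.64 ± 0.61 and -0.81 ± 0.61 (limma adjusted p 1.00 for both), so none was shown. Klrb1c, the kept natural killer marker of 3, stayed between 17.3 and 27.0 in the resting Naïve arrays and between 17.6 and 20.2 on the others. It was detected only on resting Naïve WT replicate C, at 27.0. The part of these other cells in the results below was not tested.

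**Figure D1:**
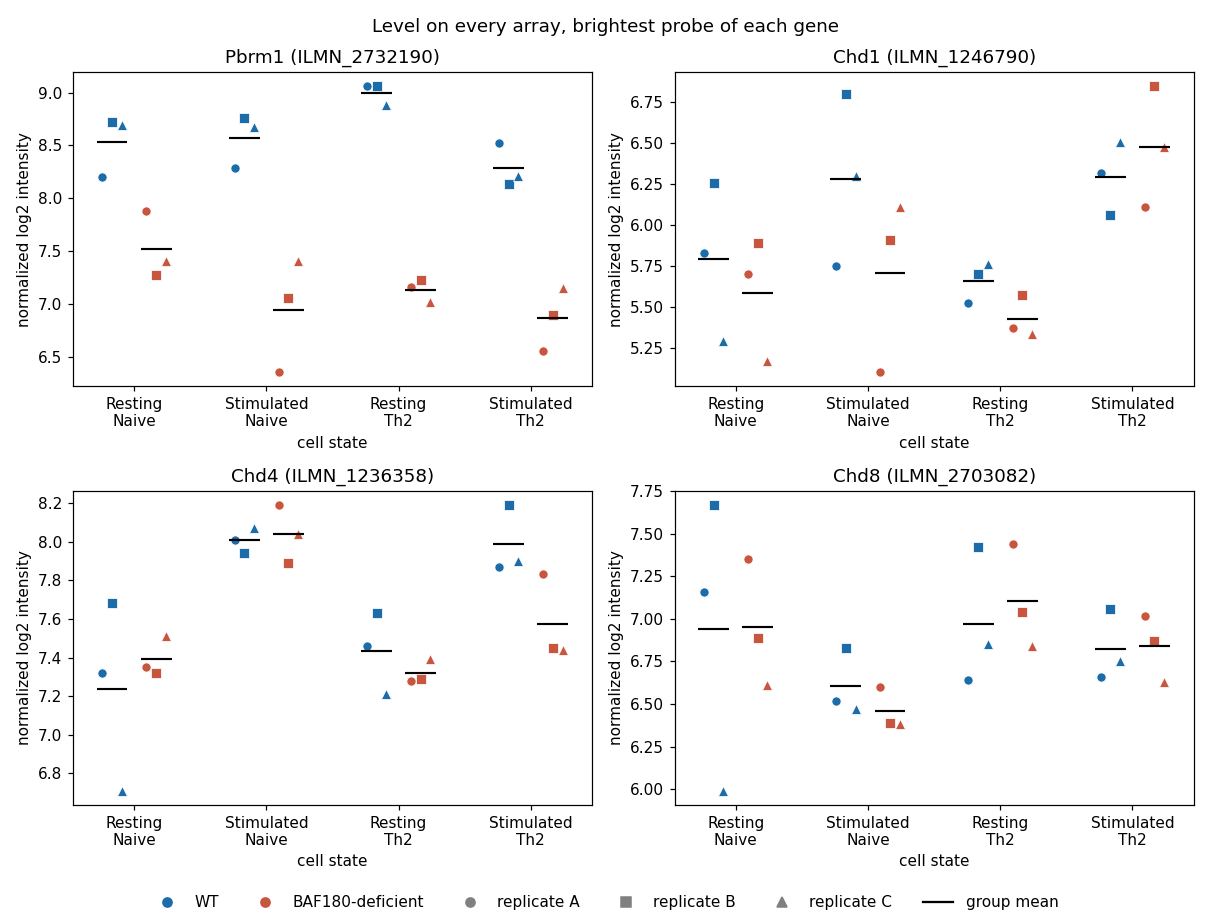
Normalized log2 intensity (vertical axes) of the brightest probe of Pbrm1, Chd1, Chd4 and Chd8 on all 24 arrays, by cell state (horizontal axes); colours mark genotype, symbols mark replicates and bars are group means. Pbrm1 is lower in all BAF180-deficient arrays of each state, while for Chd4 in stimulated Th2 cells the highest BAF180-deficient array is at 7.83 and the lowest WT array at 7.87.

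CHD4 is the ATPase of NuRD, and Chd4 had 3 probes, all detected on all 24 arrays. At its brightest probe, ILMN_1236358, Chd4 in resting Naïve cells was at 7.32, 7.68 and 6.71 in WT and at 7.35, 7.32 and 7.51 in BAF180-deficient replicates A, B and C. Stimulated Naïve cells gave 8.01, 7.94 and 8.07 in WT and 8.19, 7.89 and 8.04 without BAF180. Every stimulated Naïve array lay above every resting Naïve array of its genotype, and WT replicate C at rest was the lowest of the 24. Resting Th2 cells had Chd4 at 7.46, 7.63 and 7.21 in WT and at 7.28, 7.29 and 7.39 without BAF180. In stimulated Th2 cells it was at 7.87, 8.19 and 7.90 in WT and at 7.83, 7.45 and 7.44 without BAF180. All 3 WT arrays of stimulated Th2 cells lay above all 3 resting Th2 WT arrays and above all 3 BAF180-deficient arrays of the same state.

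Stimulation of Naïve cells for 24 h raised Chd4 by 0.77 ± 0.18 (SE) in WT (limma adjusted p 0.00167), higher in 3 of 3 arrays, and by 0.65 ± 0.18 in BAF180-deficient cells (adjusted p 0.00666). Without resting Naïve WT replicate C, the array with the highest myeloid and erythroid sums, the WT rise was 0.51 and still called (adjusted p 0.0137). Restimulation of Th2 cells raised it by 0.55 ± 0.18 in WT (adjusted p 0.0282), and in BAF180-deficient cells the difference of 0.25 ± 0.18 was not called (adjusted p 0.368), although all 3 stimulated arrays were higher there too. That difference ran from 0.12, without stimulated Th2 replicate A, to 0.32 as single arrays were left out. The WT call was lost without stimulated Th2 WT replicate B (0.45, adjusted p 0.132), without resting Th2 WT replicate A (0.56, 0.0575) or without resting Th2 WT replicate C (0.44, 0.133). The difference between the genotypes in this response was -0.30 ± 0.26 (limma unadjusted p 0.262, adjusted p 1.00), from -0.43 to -0.19 as single arrays were left out, so a difference in response was not shown. Between Th2 and Naïve cells at rest, Chd4 differed by 0.20 in WT and by -0.07 in BAF180-deficient cells, with no call.

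Between genotypes, Chd4 at this probe differed by 0.15 in resting Naïve, 0.03 in stimulated Naïve and -0.12 in resting Th2 cells, all within the spread of the arrays. In stimulated Th2 cells it was -0.41 ± 0.18, with a 95% interval from -0.79 to -0.03, a limma p of 0.0347 before and 1.00 after adjustment. The arrays of the genotypes did not overlap there, a trait for which no share over all probes is given. Among the 24 comparisons of member probes between genotypes, it had the single unadjusted p below 0.05. It failed the adjustment over all probes. With replicate letters as blocks within a state its unadjusted p was 0.0515. For scale, 397 of the 14246 probes had an unadjusted p below 0.05 between genotypes in that state.

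The other 2 Chd4 probes, which begin at positions 653 and 3662 of the transcript against 6090 for the brightest, had no call in any comparison. In stimulated Th2 cells ILMN_2654822 ranged from 6.45 to 7.70 in WT and from 6.52 to 7.53 without BAF180, and ILMN_2697652 from 6.91 to 7.81 and from 6.65 to 7.47, so both overlapped between genotypes. Their differences there were -0.15 ± 0.32 and -0.29 ± 0.30, and all 3 probes were lower without BAF180 in both Th2 states. In Naïve cells these 2 probes were also lower without BAF180, at -0.28 and -0.51 at rest and -0.13 and -0.29 after stimulation, against 0.15 and 0.03 at the brightest probe, so the sign was not particular to Th2 cells. After 24 h the same probes differed by -0.02 and 0.02 in WT and by 0.13 and 0.24 without BAF180, against the rise at the brightest probe. On restimulation they differed by 0.58 and 0.16 in WT and by 0.62 and 0.22 without BAF180. Between Th2 and Naïve cells at rest they differed by -0.28 and -0.60 in WT, where the brightest probe differed by 0.20, and by -0.20 and -0.44 without BAF180. For ILMN_2697652 the WT arrays of these states did not overlap (unadjusted p 0.055, adjusted p 0.125). Over the 24 arrays, which share the 4 states, Pearson's r of the brightest probe was 0.566 with ILMN_2654822 and 0.314 with ILMN_2697652, and 0.461 between the latter pair. These probes are shown, 5′ to 3′ as the table gives them, because they read the same gene at separate places and did not move with the brightest probe at 24 h.
ILMN_2654822: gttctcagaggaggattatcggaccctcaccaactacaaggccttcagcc
ILMN_2697652: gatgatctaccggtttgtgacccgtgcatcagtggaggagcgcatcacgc

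CHD1 is a remodeler linked to actively transcribed genes, and Chd1 had 2 probes. The brighter, ILMN_1246790, was detected on all 24 arrays. In resting Naïve cells Chd1 was at 5.83, 6.26 and 5.29 in WT and at 5.70, 5.89 and 5.17 in BAF180-deficient replicates A, B and C. Stimulated Naïve cells gave 5.75, 6.80 and 6.30 in WT and 5.10, 5.91 and 6.11 without BAF180. Genotypes and states overlapped throughout the Naïve arrays, where levels differed by more than 1 within stimulated cells of either genotype. Resting Th2 cells had Chd1 at 5.52, 5.70 and 5.76 in WT and at 5.37, 5.57 and 5.33 without BAF180. In stimulated Th2 cells it was at 6.32, 6.06 and 6.51 in WT and at 6.11, 6.85 and 6.48 without BAF180. Each stimulated Th2 array lay above each resting Th2 array, in both genotypes.

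Restimulation of Th2 cells raised Chd1 at this probe by 1.06 ± 0.29 in BAF180-deficient cells (limma adjusted p 0.00888). Without stimulated Th2 BAF180-deficient replicate B the difference was 0.87 and the call was lost (adjusted p 0.0592). In WT the difference was 0.64 ± 0.29 and was not called (adjusted p 0.113), although all 3 stimulated arrays were higher. The genotypes' responses differed by 0.42 ± 0.41 (limma unadjusted p 0.314, adjusted p 1.00), from 0.23 to 0.60 as single arrays were left out, so a difference in response was not shown. After 24 h, Chd1 differed by 0.49 in WT and 0.12 in BAF180-deficient Naïve cells, and between Th2 and Naïve cells at rest by -0.13 and -0.16, with no call. The WT difference at 24 h became called without stimulated Naïve WT replicate A (0.76, adjusted p 0.0499), and was 0.23 without replicate B of that group. Between genotypes it differed by -0.21 in resting Naïve, -0.58 in stimulated Naïve, -0.24 in resting Th2 and 0.18 in stimulated Th2 cells, with arrays that overlapped in each state. As single arrays were left out, the stimulated Naïve difference ran from -0.84, without WT replicate A, to -0.28, without BAF180-deficient replicate A. Within each replicate letter the BAF180-deficient array was the lower, and with letters as blocks within a state the unadjusted p was 0.00654 and the adjusted p 0.734, with no call. With letters as blocks over all arrays these were 0.0343 and 1.00. In resting Naïve and in resting Th2 cells the BAF180-deficient array was also the lower within each letter. In stimulated Th2 cells it was not.

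The dimmer Chd1 probe, ILMN_2958382, was detected on 16 of the 24 arrays, on none of the resting Naïve arrays and on 2 of 3 in each stimulated Naïve group. It ranged from 4.69 to 5.14 in resting and from 5.40 to 5.77 in stimulated Th2 WT cells, and from 4.72 to 5.11 and from 5.44 to 5.98 in the BAF180-deficient cells. The stimulated Th2 arrays lay above the resting Th2 arrays in both genotypes here too. Restimulation raised it by 0.74 ± 0.24 in WT (limma adjusted p 0.0247) and by 0.77 ± 0.24 without BAF180 (adjusted p 0.0202). The WT call was lost without stimulated Th2 WT replicate A (0.69) or C (0.67) or resting Th2 WT replicate A (0.72) or C (0.63), and when no filter was used (adjusted p 0.0525). The BAF180-deficient call was lost without stimulated Th2 replicate B (0.62) or resting Th2 replicate A (0.77) or C (0.68). Between genotypes the probe differed by 0.24 in stimulated Naïve, 0.01 in resting Th2 and 0.04 in stimulated Th2 cells, with signs opposite to the brighter probe in 2 of these 3 states, and no difference is given for resting Naïve cells. Against resting Naïve cells, where it was undetected, it was called after 24 h neither in WT (adjusted p 0.12) nor without BAF180 (adjusted p 0.0514). The latter became called with replicate letters as blocks (adjusted p 0.0434), a stricter filter (0.0442) or an intensity trend in the prior (0.0462). It was also called without replicate A of the resting (0.0296) or stimulated (0.00163) Naïve BAF180-deficient cells. In Th2 against Naïve cells at rest, where the brighter probe had -0.13 and -0.16, this probe was higher in both genotypes, with no call. Against the lowest detected level, the fold was at least 1.03 in WT (limma unadjusted p 0.0234, adjusted p 0.0636). Without BAF180 it was at least 1.07 (adjusted p 0.126).

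The pair of Chd1 probes is shown because they read nearly the same bases and yet had a Pearson's r of 0.651 over the 24 arrays. They share 44 of their 50 bases, in capitals, with the brighter probe lying 6 bases further along by sequence, while the table's transcript starts, 4814 and 4819, are 5 apart. The table places them on the plus strand of chr17:15473320-15473369 and chr17:15473325-15473374 and names no genome build.
ILMN_2958382: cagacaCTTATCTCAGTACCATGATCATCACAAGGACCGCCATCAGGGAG
ILMN_1246790: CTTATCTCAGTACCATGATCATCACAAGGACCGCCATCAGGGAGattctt

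CHD8 is known as a binder of beta-catenin, and Chd8 had 1 probe, ILMN_2703082, detected on all 24 arrays. In resting Naïve cells Chd8 was at 7.16, 7.67 and 5.99 in WT and at 7.35, 6.89 and 6.61 in BAF180-deficient replicates A, B and C. Stimulated Naïve cells gave 6.52, 6.83 and 6.47 in WT and 6.60, 6.39 and 6.38 without BAF180. Resting Naïve WT replicate C was the lowest of all arrays, with the other 2 of its group above every stimulated Naïve array. Without BAF180 the lowest resting Naïve array, at 6.61, was next to the highest stimulated one, at 6.60. Resting Th2 cells had Chd8 at 6.64, 7.42 and 6.85 in WT and at 7.44, 7.04 and 6.84 without BAF180. In stimulated Th2 cells it was at 6.66, 7.06 and 6.75 in WT and at 7.02, 6.87 and 6.63 without BAF180. Genotypes overlapped in every state, and resting overlapped stimulated Th2 cells.

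Chd8 was called in no comparison. The differences between genotypes were 0.01 and -0.16 in resting and stimulated Naïve cells and 0.14 and 0.02 in resting and stimulated Th2 cells, each with an SE of 0.30. After 24 h it differed by -0.33 in WT (adjusted p 0.411) and -0.50 without BAF180 (adjusted p 0.203), the latter from -0.67 to -0.30 as single arrays were left out. Without resting Naïve WT replicate C, the array with the highest myeloid and erythroid sums, the WT difference was -0.80 and was called (limma adjusted p 0.0113), while without replicate B of that group it was 0.03. Between Th2 and Naïve cells at rest it differed by 0.03 in WT and 0.16 without BAF180, and on restimulation by -0.15 and -0.27, the latter from -0.40 to -0.10.

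At the brightest probe of each gene, the order of the 8 group means differed between the genes. Chd4 ran from 8.04 in stimulated Naïve BAF180-deficient cells, through 8.01 in stimulated Naïve WT, 7.99 and 7.57 in stimulated Th2 WT and BAF180-deficient, and 7.44 in resting Th2 WT cells, to 7.39 in resting Naïve and 7.32 in resting Th2 BAF180-deficient cells and 7.24 in resting Naïve WT. Neighbours in that order overlapped in 6 of 7 cases, the exception being stimulated Th2 WT above stimulated Th2 BAF180-deficient cells. At the Chd4 probes ILMN_2654822 and ILMN_2697652, resting Naïve WT cells instead had ranks 3 and 2 from the top, at 6.73 and 7.86. Chd1 ran from 6.48 in stimulated Th2 BAF180-deficient, 6.30 in stimulated Th2 WT and 6.29 in stimulated Naïve WT cells to 5.79 in resting Naïve WT, 5.71 in stimulated Naïve BAF180-deficient, 5.66 in resting Th2 WT, 5.59 in resting Naïve BAF180-deficient and 5.42 in resting Th2 BAF180-deficient cells. All 7 neighbouring pairs overlapped. Chd8 ran from 7.11 and 6.97 in resting Th2 BAF180-deficient and WT cells, 6.95 and 6.94 in resting Naïve BAF180-deficient and WT, and 6.84 and 6.82 in stimulated Th2 BAF180-deficient and WT cells to 6.61 and 6.45 in stimulated Naïve WT and BAF180-deficient cells, and all 7 neighbouring pairs overlapped.

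Counted over the 6 member probes, limma with these criteria called 0 between genotypes in each of the 4 states. Over all kept probes the criteria called 0.681% in resting Naïve, 0.112% in stimulated Naïve, 0.0842% in resting Th2 and 0.0913% in stimulated Th2 cells. At an unadjusted p below 0.05 the members numbered 0, 0, 0 and 1 in that order, and all probes 973, 321, 489 and 397. Member differences ran from -0.58 to 0.24, with a lowest adjusted p of 0.84. Their medians were -0.10, -0.14, -0.15 and -0.07, the resting Naïve value being -0.21 over the 5 probes detected there, beside medians over all kept probes of -0.00113, 0.00172, 0.000562 and 0.00125.

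Between states, 24 h of stimulation gave 1 of 6 member probes higher and 0 lower in WT, where 23.6% of all kept probes were higher and 20% lower, and the same counts in BAF180-deficient cells, where the shares were 22.3% and 19.3%. Median differences of the members were 0.25 and 0.19, or 0.01 and 0.17 with the dimmer Chd1 probe at its bound, beside 0.01 and 0.02 over all probes. In Th2 against Naïve cells at rest, 1 member probe in WT, the dimmer of Chd1, and 0 in BAF180-deficient cells had an unadjusted limma p below 0.05. Limma called 0 member probes there in either direction. The shares of all probes were 18.4% higher and 16% lower in WT and 18.8% and 15.9% without BAF180. Member medians there were -0.05 and -0.12, beside 0.03 over all probes in both genotypes. Restimulation of Th2 cells gave 2 of 6 higher and 0 lower in each genotype, against 13% and 14.3% of all probes in WT and 12% and 13.8% without BAF180. The 2 were the dimmer Chd1 probe and the brightest Chd4 probe in WT, and both Chd1 probes, which share most of their bases, without BAF180. Member medians were 0.56 and 0.43, beside -0.00184 and -0.00425 over all probes. State comparisons share their resting arrays, so their counts are not independent of each other.

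Tests of whether genotype changed a response called 0 of 6 member probes for 24 h of stimulation, for Th2 differentiation and for restimulation, against 0.00702%, 0.00702% and 0% of all probes by limma. With no adjustment, p fell below 0.05 for 0 member probes and for 329, 387 and 257 of all probes. The 18 member values ran from -0.37 to 0.42, with a lowest unadjusted p of 0.262.

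**Figure D2:**
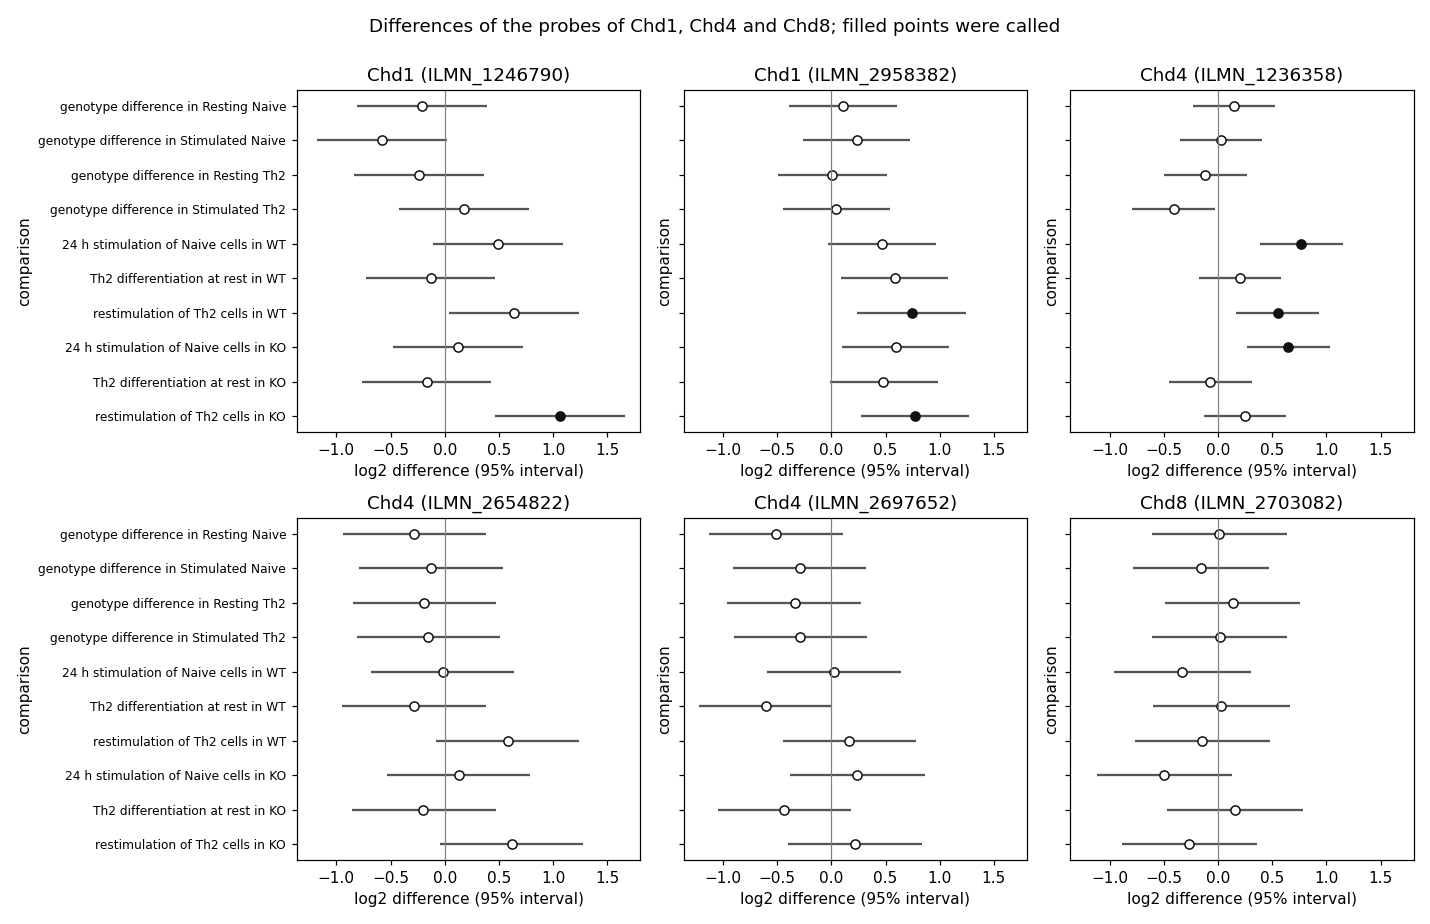
Log2 differences (horizontal axes) of the 6 probes of Chd1, Chd4 and Chd8 in the 4 genotype and 6 state comparisons (vertical axes); points are limma estimates, lines are 95% intervals, KO is BAF180-deficient and filled points were called. Filled points appear for 24 h stimulation and restimulation only, the highest at 1.06 for Chd1 in restimulated BAF180-deficient Th2 cells. The dimmer Chd1 probe was undetected in resting Naïve cells.

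Between members, Pearson's r over the 24 arrays was 0.351 for Chd1 with Chd4, 0.0636 for Chd1 with Chd8 and -0.0767 for Chd4 with Chd8. Probes of the same gene had values from 0.314 to 0.566 for Chd4 and 0.651 for Chd1. Low values between members thus do not show that the genes ran apart. These are descriptions, since the arrays share states and genotypes. Of 10418 other kept genes, the ones most like Chd1 over the arrays were Tdg (0.831), Mios (0.825) and Dld (0.82). Chd4 was most like Timm8b (0.871), G3bp1 (0.849) and Ss18l2 (0.844). All 3 had their lowest mean in resting Naïve WT cells, as Chd4 did at its brightest probe. The other 2 Chd4 probes were lowest in resting Th2 BAF180-deficient cells, at 6.25 and 6.91. For Chd8 the highest values were those of Cd52 (0.812), Cast (0.783) and Akr1c19 (0.738). Cd52 and Cast were lowest in stimulated Naïve BAF180-deficient cells, as Chd8 was, while Akr1c19 was detected on 6 of the 24 arrays only.

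Partners of CHD3 and CHD4 in NuRD, which include its deacetylases and histone-binding and methyl-DNA-binding subunits, formed a list of 13 genes. Of these, 10 were kept with 15 probes, Mbd2 was below the filter, and Rbbp4 and Gatad2a had no probe. After 24 h of stimulation 6 probes were higher and 5 lower in WT and 7 and 4 without BAF180, where the shares of all kept probes were 23.6% and 20% in WT and 22.3% and 19.3% without BAF180. The list's medians were 0.36 and 0.52, beside 0.01 and 0.02 over all probes. Where a probe was undetected on all arrays of a group, its fold is a lower bound, taken against the lowest detected level of those arrays, and with such a probe at its bound the medians were 0.08 and 0.50. The deacetylase gene Hdac2 rose by 1.46 in WT and 1.47 without BAF180, the histone-binding subunit gene Rbbp7 by 1.30 and 1.45, and Cdk2ap1 by 1.03 and 0.92, the Cdk2ap1 calls being lost under the Z-score normalization of the study's methods. Mbd3, the gene of a methyl-DNA-binding family subunit, rose by 0.68 without BAF180. Here and in the lists below, a gene given for a single genotype was not shown to differ between genotypes in response. For that, 0 list probes were called by limma. Zmynd8 differed by -1.57 and -1.22, and the subunit gene Mta3 by -1.04 and -0.75, both lower in both genotypes, and Gatad2b by -0.63 in WT.

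In Th2 against Naïve cells at rest, 5 NuRD probes were higher and 3 lower in each genotype, beside 18.4% and 16% of all probes in WT and 18.8% and 15.9% without BAF180, with medians of -0.01 and 0.02 beside 0.03. Hdac2 was higher by 0.93 in WT and 0.89 without BAF180, Rbbp7 by 0.95 and 1.07 and Cdk2ap1 by 0.49 and 0.54. Under the Z-score normalization the WT call of Cdk2ap1 was lost here and its other value changed sign, and the calls of Gatad2b in both genotypes and of Mta3 without BAF180 were lost. Zmynd8 differed by -1.09 and -0.83, Mta3 by -1.0 and -0.60 and Gatad2b by -0.58 and -0.63. Gatad2b lost its WT call without replicate A of resting Th2 or of resting Naïve WT cells (-0.52 to -0.47), and its other call without resting Naïve BAF180-deficient replicate B (-0.45). The Rbbp7 call in WT was lost without resting Th2 WT replicate B (0.75). The Mta3 call without BAF180 was lost when resting Th2 replicate B or C or resting Naïve replicate C of that genotype was left out (-0.55 to -0.49). Restimulation gave 1 probe higher and 5 lower in WT and 1 and 3 without BAF180, with medians of -0.08 and 0.01, beside shares of 13% and 14.3% in WT and 12% and 13.8% without BAF180 and all-probe medians of -0.00184 and -0.00425. Mta3 differed by -1.29 and -1.36 and Zmynd8 by -1.13 and -0.98, all lower. Hdac1 differed by -0.76 in WT, a call lost when any 1 of 5 of the 6 arrays was left out, all but resting Th2 WT replicate A (-0.79 to -0.60), and also with no background correction or no filter. Hdac2 was higher by 0.72 and 0.89, and its WT call was lost without stimulated Th2 WT replicate C or resting Th2 WT replicate B or C (0.51 to 0.70).

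Partners of the ISWI ATPases, subunits of complexes such as ACF and CHRAC, were 9 genes, of which 5 were kept with 7 probes. Baz1b was below the filter, and Baz2b, Bptf and Cecr2 had no probe. After 24 h, 3 probes were higher and 2 lower in WT and 3 and 1 without BAF180, beside 23.6% and 20% of all probes in WT and 22.3% and 19.3% without BAF180. The medians were -0.09 and -0.24, beside 0.01 and 0.02. Pole3, a histone-fold subunit gene, rose by 2.04 in WT and 1.98 without BAF180, and Baz2a differed by -1.81 and -1.60. Chrac1, another histone-fold gene, differed by -0.51 in WT, a call lost without resting Naïve WT replicate A or B or stimulated Naïve WT replicate B (-0.49 to -0.41). Baz1a, which encodes the ACF partner of SMARCA5, rose by 0.90 and 0.72, and its call without BAF180 was lost without resting or stimulated Naïve replicate B of that genotype (0.60 and 0.59). At rest, 1 probe was higher and 2 lower in Th2 WT cells and 2 and 2 without BAF180, beside 18.4% and 16% of all probes in WT and 18.8% and 15.9% without BAF180, with medians of -0.33 and -0.34 beside 0.03. There Pole3 was higher by 0.91 and 0.87, Baz2a differed by -1.35 and -1.58, and Chrac1 by -0.61 and -0.59. The Chrac1 calls were lost without resting Th2 WT replicate B (-0.40) in WT, and without resting Th2 replicate B or resting Naïve replicate A (-0.55 to -0.48) in BAF180-deficient cells. All 3 Chrac1 calls were lost under the Z-score normalization. Restimulation gave 2 higher and 0 lower in each genotype, beside 13% and 14.3% of all probes in WT and 12% and 13.8% without BAF180, with medians of 0.38 and 0.24 beside -0.00184 and -0.00425. Baz1a rose by 1.35 in WT and 1.70 without BAF180, and Rsf1, a chromatin assembly partner of SMARCA5, rose by 0.83 without BAF180. Pole3 rose by 0.72 in WT, a call lost without resting Th2 WT replicate B (0.59). Smarca5 itself had no probe under the rule, so the partners have no level of their ATPase beside them.

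The list of other CHD and ISWI ATPases, Chd5, Chd6, Chd1l and Smarca1, kept Chd1l and Chd5 with 3 probes. Chd1l was undetected in resting Naïve cells and was at least 1.4-fold higher after 24 h in WT (limma adjusted p 0.000548) and at least 1.2-fold higher without BAF180 (adjusted p 0.00889). The latter call was lost without stimulated Naïve BAF180-deficient replicate B and under the Z-score normalization. On restimulation it differed by 0.45 in WT (adjusted p 0.0474), a call lost when any 1 of 5 of the 6 arrays was left out, all but stimulated Th2 WT replicate B (0.31 to 0.50). It was also lost with no background correction, no filter, a stricter filter or an intensity trend in the prior. Restimulation without BAF180 gave 0 calls in this list, with 1 probe at an unadjusted limma p below 0.05. Of all kept probes, 12% were called higher and 13.8% lower there. Th2 cells at rest had 0 calls in this list in either genotype, and 0 probes with an unadjusted p below 0.05. The calls made 1 of 3 probes higher and 0 lower in each case. Of all kept probes, 23.6% were higher after 24 h in WT and 22.3% without BAF180, and 13% on restimulation in WT. For Th2 cells at rest the shares were 18.4% higher and 16% lower in WT and 18.8% and 15.9% without BAF180.

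Outside these families, 17 other Snf2-type ATPase genes gave 12 kept genes with 14 probes, with Hells, Ercc6 and Hltf below the filter and Srcap and Btaf1 without a probe. After 24 h, 5 probes were higher and 3 lower in WT and 8 and 3 without BAF180, beside 23.6% and 20% of all probes in WT and 22.3% and 19.3% without BAF180. The medians were 0.18 and 0.47, beside 0.01 and 0.02. The recombination genes Rad54l and Rad54b rose by 2.47 and 2.22 in WT and by 2.47 and 2.11 without BAF180. Ttf2 rose by 1.64 and 1.93 and Smarcad1 by 0.82 and 0.83. Smarca2, an ATPase gene of SWI/SNF, differed by -2.78 and -2.88, and Ep400 by -0.47 and -0.63, with the WT call of Ep400 lost without stimulated Naïve WT replicate C (-0.39) or under the Z-score normalization. In Th2 cells at rest 4 were higher and 3 lower in each genotype, beside 18.4% and 16% of all probes in WT and 18.8% and 15.9% without BAF180. The medians were 0.25 and 0.21, beside 0.03, and Smarca2 differed by -1.79 and -1.89. Rad54l was higher by 2.28 and 2.06, Rad54b by 2.02 and 1.51 and Ttf2 by 1.79 and 1.82, and Ino80 differed by -0.58 and -0.68. Smarca4, the other SWI/SNF ATPase gene, was higher by 0.58 in WT, and Smarcal1 by 0.73 without BAF180. The WT calls were lost for Ino80 without resting Naïve WT replicate A (-0.37) and for Smarca4 without that array or resting Th2 WT replicate B (0.47 to 0.48) or under the Z-score normalization.

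In the same list, restimulation gave 1 higher and 6 lower in WT and 1 and 5 without BAF180, beside 13% and 14.3% of all probes in WT and 12% and 13.8% without BAF180. The medians were -0.44 and -0.32, beside -0.00184 and -0.00425. There Smarca2 differed by -2.00 and -2.19, Rad54b by -1.54 and -1.15 and Rad54l by -1.47 and -1.32, all lower in both genotypes. In WT, Ino80 differed by 0.49, a call lost without any 1 of the 6 arrays (0.44 to 0.52), and Ttf2 by -0.91, a call lost without stimulated Th2 WT replicate A or B or resting Th2 WT replicate C (-0.91 to -0.80). Without BAF180, Smarca4 differed by 0.50, a call lost without replicate A or B of either Th2 state (0.37 to 0.51), and Smarcal1 by -0.54, a call lost without replicate B or C of either state (-0.54 to -0.41). With no filter the WT calls of Ino80 and Ttf2 and the calls of Smarca4 and Smarcal1 were lost. The intensity trend lost all of these but Ttf2, no background correction lost Ino80, and the Z-score normalization lost Smarca4. With undetected probes at their bounds, the medians became 0.23 after 24 h without BAF180, 0.12 and 0.09 at rest, and -0.36 and -0.17 on restimulation.

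Over the 39 kept probes of these 4 lists together, limma called 0 between genotypes in each state, beside 0.681%, 0.112%, 0.0842% and 0.0913% of all kept probes. For genotype in the responses it called 0 as well, beside 0.00702%, 0.00702% and 0%. The lowest adjusted p between genotypes was 0.524. Before adjustment, p was below 0.05 between genotypes for 2 probes of the lists at rest and 2 after stimulation in Naïve cells, and for 1 and 0 in Th2 cells, and for 1, 0 and 0 probes for genotype in the responses to 24 h of stimulation, Th2 differentiation and restimulation. Of all 14246 probes, 973, 321, 489 and 397 passed that limit between genotypes, and 329, 387 and 257 for genotype in the responses. The state comparisons from resting Naïve cells were made beside B cell, myeloid and erythroid markers that were lower in the other states: in WT after 24 h, 3 of 6, 4 of 4 and 1 of 2 were called lower, with the same counts without BAF180. In Th2 cells at rest they were 3 of 6, 4 of 4 and 1 of 2 in WT and 4, 4 and 1 without BAF180, and their part in the differences of members and lists was not tested. On restimulation of Th2 cells 0 of these markers were called in either genotype.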

How the data were processed

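The data were Illumina MouseRef-8 v2 bead arrays of 24 RNA samples, 3 in each of 8 groups. The authors exported probe intensity from GenomeStudio without normalization (version 1.6.0 in the processing notes, another in the study's methods), and the deposited table gives a detection p-value beside each intensity. Intensities were background-corrected from the detection p-values, offset by 16, log2-transformed and quantile-normalized (neqc, limma 3.58.1, R 4.3.3). The filter left 14246 of 25697 probes, those whose detection p-value was 0.02 or lower on 1 array or more. A single limma model with 8 group means (16 residual degrees of freedom) gave all differences, with Benjamini-Hochberg adjustment over the kept probes. The procedure was tested on simulated data. Probes were counted individually, and a gene was named by its brightest probe, with the called list genes of largest difference named, up to 4 per direction. The members and lists were chosen with earlier results of these data known. The study describes 3 pairs of a WT and a BAF180-deficient mouse, but does not say whether a replicate letter marks such a pair. As a check, residuals of WT and BAF180-deficient arrays of a letter correlated at 0.301 (A), 0.136 (B) and 0.516 (C) over the 4 states, so letters were also tried as blocks. The other alternatives were a Z-score normalization, no background correction, normalization within a state, fits of 6 arrays, no filter, a stricter filter (0.01 on 3 arrays), an adjusted p below 0.05, an intensity trend in the prior, and leaving out each array.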

Additional observations from a re-analysis of the deposited data

How the results depend on the processing

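Between genotypes the count of member probes called was 0 under every alternative run, blocks of replicate letters (0 in each state) included. Among state comparisons, the 24 h count without BAF180 was 2 in place of 1 with the replicate block, the stricter filter or the intensity trend, and the restimulation count in WT was 1 in place of 2 without the filter, which tests more probes. Leaving out 1 array gave counts of 1 to 2 for 24 h in WT and without BAF180 and of 0 to 2 for restimulation in each genotype. Under the Z-score normalization, differences near 0 changed sign for Chd1 in Th2 against Naïve cells at rest (0.02 in WT, 0.02 without BAF180), Chd4 there without BAF180 (0.19) and Chd8 between genotypes in stimulated Th2 cells (-0.05). A called difference also changed sign, that of Cdk2ap1 in Th2 against Naïve cells without BAF180 (-0.05, from 0.54). Without background correction Chd8 between genotypes in resting Naïve cells was -0.01. The cause was not tested. Leaving out 1 array, the difference between genotypes in resting Naïve cells ran from -0.46 to 0.03 for Chd1, -0.11 to 0.37 for Chd4 and -0.46 to 0.38 for Chd8; in stimulated Naïve cells from -0.04 to 0.11 for Chd4; in resting Th2 cells from -0.03 to 0.36 for Chd8; and in stimulated Th2 cells from -0.003 to 0.36 for Chd1 and -0.07 to 0.13 for Chd8. For 24 h of stimulation it ran from -0.80 to 0.03 for Chd8 in WT and -0.09 to 0.42 for Chd1 without BAF180, for restimulation from -0.31 to 0.08 for Chd8 in WT, and for Th2 against Naïve cells from -0.39 to 0.10 (Chd1), -0.06 to 0.42 (Chd4) and -0.44 to 0.39 (Chd8) in WT and -0.02 to 0.36 (Chd8) without BAF180. Others kept their sign but moved in size: from -0.23 to -0.02 for Chd4 between genotypes in resting Th2 cells, from -0.23 to -0.04 for Chd8 in stimulated Naïve cells, and for Th2 against Naïve cells without BAF180 from -0.37 to -0.01 (Chd1) and -0.11 to -0.01 (Chd4). Apart from single-array omissions, 246 of 252 values of member differences, most of them at the brightest probes, kept direction and side of the threshold. For list genes 482 of 510 did, with 27 others losing their call and 1 changing sign. With single arrays left out, 180 of 216 member values did, while 23 changed sign, 11 lost their call and 2 became called. For list genes 459 of 510 did then, and 51 lost their call. Pbrm1 stayed lower throughout, but its call was lost in resting Naïve cells under the Z-score normalization (-0.93), and in all states but resting Th2 after normalization within the state or with 6 arrays only, where fewer arrays estimate the spread; an adjusted p below 0.05 left out resting Naïve cells. The slide as a block was not run, since the deposited columns name no slides. Signal near background limits the dimmer Chd1 probe, and 3 arrays a group limit every difference.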
